A study of Mus musculus with 10 samples.

Results

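Rcan2, 1 of the 3 mouse genes for regulators of calcineurin, was described together with 9 further genes of the calcineurin pathway in livers of ethanol-fed mice. The 10 genes are Rcan1, Rcan2 and Rcan3, the calcineurin subunit genes Ppp3ca, Ppp3cb and Ppp3r1, and the transcription factor genes Nfatc1, Nfatc2, Nfatc3 and Nfat5. They were found by symbol among 55401 genes of the deposited table. Rcan2 was chosen by its rise in NIKhKO livers, so its difference between the genotypes is given as a description without a test. The other 9 genes were chosen as the pathway around it.

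Liver RNA was sequenced from 5 NIKflox and 5 NIKhKO mice, with 1 library per liver sample. The design text writes the genotypes as NIKF/F and NIKHKO and the title speaks of hepatic NIK, the NF-kB inducing kinase encoded by Map3k14. The sources used here do not spell out hKO, name no Cre line, strain or age, and give no mouse on a control diet. Both genotypes had the Lieber-DeCarli liquid diet, at 5% ethanol over 4 weeks. No label says that the samples of a genotype came from separate litters, so p-values measure the spread between these samples.

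Calcineurin is a phosphatase switched on by calcium and calmodulin. It consists of a catalytic A subunit and a calcium-binding B subunit, and it is the target of the immunosuppressants cyclosporin and FK506. It removes phosphates from the NFATc transcription factors, which then enter the nucleus, while the regulator of calcineurin (RCAN) proteins bind the catalytic subunit and restrain it. NFAT5 is the NFAT relative that answers to osmotic stress and lacks the calcineurin docking region of the others.

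The 3 Rcan genes share a conserved serine-proline stretch that marks the family, and it is shown here because it is where their coding sequences are most alike. In the longest complete coding sequence of each gene in GENCODE M21 (GRCm38), the most similar ungapped stretch of 60 bases had 42 bases in common to all 3, printed in capitals. It lies in exon 4 of 5 of the Rcan2 transcript at chr17:44020998-44021057 (plus strand), in exon 3 of 4 of the Rcan1 transcript at chr16:92395933-92395992 (minus strand) and in exon 4 of 5 of the Rcan3 transcript at chr4:135418447-135418506 (minus strand).
Rcan2: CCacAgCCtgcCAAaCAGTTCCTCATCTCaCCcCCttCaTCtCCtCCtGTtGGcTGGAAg
Rcan1: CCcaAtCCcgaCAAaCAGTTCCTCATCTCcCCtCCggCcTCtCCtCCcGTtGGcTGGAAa
Rcan3: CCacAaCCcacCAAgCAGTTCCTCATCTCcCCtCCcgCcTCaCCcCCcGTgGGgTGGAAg
Over the aligned coding bases Rcan2 was 63.1% identical to Rcan1 and 68.6% identical to Rcan3. The longest run that any annotated Rcan2 transcript shared with any Rcan1 transcript was 18 bases, and with any Rcan3 transcript 14 bases.

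The table gives Rcan2 (ENSMUSG00000039601) at chromosome 17, 43801351 to 44039060 on the plus strand, a span of 237710 bases with 7 transcripts. RefSeq on GRCm38.p6 lists 3 starts of Rcan2. The 250 bases before the first and the third are shown, because the gene-level values do not say which start was used. Beside them stand the 250 bases before the internal start of Rcan1, a promoter known to answer to NFAT. Capitals mark GGAAA, the core of NFAT sites, on either strand (TTTCC on the strand shown).
Rcan2, start 1, chr17:43801102-43801351, plus strand: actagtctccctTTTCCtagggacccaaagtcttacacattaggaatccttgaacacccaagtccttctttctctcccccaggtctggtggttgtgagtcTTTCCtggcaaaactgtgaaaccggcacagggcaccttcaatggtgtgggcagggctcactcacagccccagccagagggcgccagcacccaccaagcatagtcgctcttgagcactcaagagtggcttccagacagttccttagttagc
Rcan2, start 3, chr17:43952749-43952998, plus strand: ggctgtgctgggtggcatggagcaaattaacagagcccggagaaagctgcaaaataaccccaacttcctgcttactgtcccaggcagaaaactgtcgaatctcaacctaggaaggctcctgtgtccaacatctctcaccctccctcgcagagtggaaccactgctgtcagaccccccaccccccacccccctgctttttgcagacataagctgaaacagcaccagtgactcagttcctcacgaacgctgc
Rcan1, internal start, chr16:92400079-92400328, minus strand: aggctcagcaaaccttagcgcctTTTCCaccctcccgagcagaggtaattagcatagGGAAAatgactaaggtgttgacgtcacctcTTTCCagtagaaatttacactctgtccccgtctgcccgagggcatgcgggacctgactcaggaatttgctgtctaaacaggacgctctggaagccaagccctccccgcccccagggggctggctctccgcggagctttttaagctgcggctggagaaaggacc
The first window of Rcan2 held 2 cores and the other windows of Rcan2 held 0, against 3 in the window before the internal Rcan1 start. The window before the upstream Rcan1 start, not shown, held 0. The core is common, since 55.6% of 32851 RefSeq promoter windows of the same length held at least 1. The longer TGGAAA was in 18.6% of all windows and was found 2 times before the internal Rcan1 start and in no Rcan2 window. AGGTCA, the element that thyroid hormone receptors bind in pairs (14.0% of all windows), and the NF-kB consensus (3.90%) were in no Rcan2 or Rcan1 window. These matches are descriptions of letters in the windows.

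Libraries held 47161869 to 65052525 estimated counts. Expression is given as FPKM, fragments scaled to transcript length and to the size of the library, which allows levels of different genes to be set side by side. Map3k14 read 0.483 to 0.899 FPKM in NIKflox and 0.347 to 0.443 FPKM in NIKhKO, ranges that did not overlap. The 7 hepatocyte markers summed to 37533 to 52489 FPKM in NIKflox and 41040 to 48274 FPKM in NIKhKO. Most of this sum was Alb, at 24796 to 36394 FPKM in NIKflox and 29116 to 34441 FPKM in NIKhKO. Of the 7 markers, 3 had positive log2 fold changes and 0 were called by edgeR. Transcripts of heart muscle were present in NIKflox 4 and NIKflox 2, where 8 heart markers summed to 30.0 and 6.77 FPKM, against at most 0.223 FPKM in the other 8 libraries.

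Rcan2 was higher in every NIKhKO liver than in every NIKflox liver. The NIKflox libraries 1 to 5 read 1.08, 0.755, 1.57, 1.53 and 1.13 FPKM, and the NIKhKO libraries 1 to 5 read 3.32, 4.01, 4.28, 2.44 and 4.27 FPKM. NIKhKO 4 lay closest to NIKflox, and the gap between the groups, from 1.57 to 2.44 FPKM, was wider than the whole NIKflox range. Group means were 1.22 ± 0.342 FPKM and 3.66 ± 0.785 FPKM (SD, n = 5 each), a ratio of 3.01. The log2 fold change from the estimated counts was 1.66, between 1.54 and 1.78 when any single library was left out. Counts ran from 219 to 1271 per library. Of the 12730 genes tested, 3 (0.0236%) were called at an adjusted p below 0.05 (edgeR quasi-likelihood test), and ranges did not overlap for 2.19%. Since Rcan2 was chosen in this comparison, nothing is read from its place among them.

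**Figure D1:**
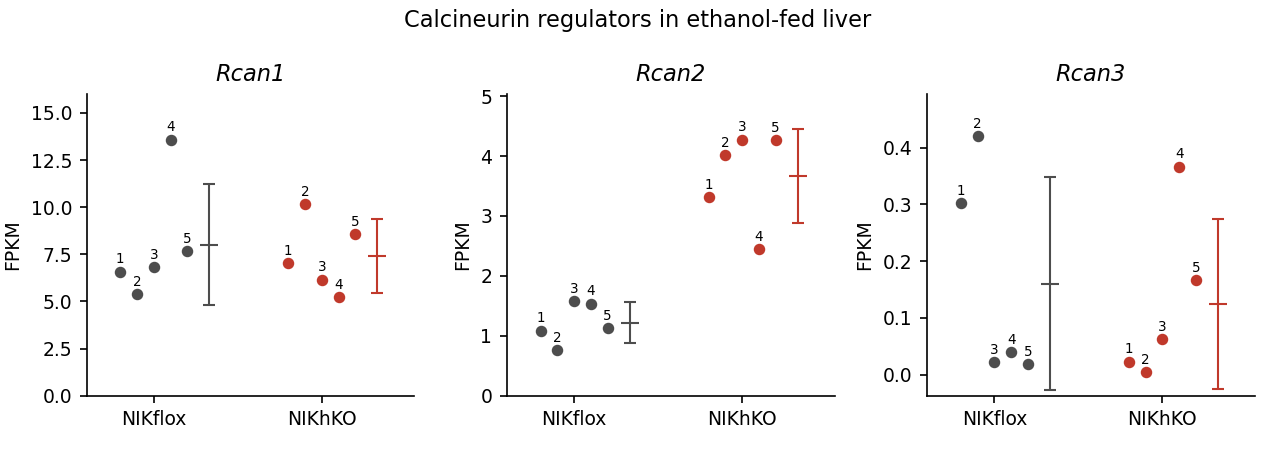
FPKM of Rcan1, Rcan2 and Rcan3 in each library, with the replicate number above each point and the mean ± SD (n = 5) at the right of each group. Vertical axes differ between panels, and the SD bars of Rcan3 reach below 0. All NIKhKO points of Rcan2 lie above all NIKflox points, while the groups overlap for Rcan1 and Rcan3.

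Rcan1 (ENSMUSG00000022951, chromosome 16, 92391953 to 92470867, minus strand), the family member that NFAT itself induces, was the most abundant RCAN transcript and was not called. Its NIKflox libraries read 6.59, 5.38, 6.84, 13.6 and 7.67 FPKM and its NIKhKO libraries 7.03, 10.2, 6.15, 5.23 and 8.56 FPKM. The highest values were those of NIKflox 4 and NIKhKO 2, the 2 libraries with the most counts (65052525 and 64321202). NIKflox 4 also had the highest sum of heart markers, 30.0 FPKM. NIKflox 2, with a heart sum of 6.77 FPKM, had the lowest Rcan1 of its group. The parts of depth and of heart tissue in the Rcan1 values were not tested. The log2 fold change was −0.04, with a 95% interval from −0.54 to 0.47 that allows anything from a 0.686-fold to a 1.38-fold level (edgeR adjusted p = 0.98).

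Rcan3 (ENSMUSG00000059713, chromosome 4, 135412308 to 135433853, minus strand) was low, below the mean of 0.5 FPKM needed for a test. It read 0.302 and 0.420 FPKM in NIKflox 1 and 2 and 0.366 and 0.167 FPKM in NIKhKO 4 and 5, at 59 to 142 counts. The other 6 libraries lay between 0.00466 and 0.0619 FPKM, at 2 to 21 counts. High and low libraries were thus found in both genotypes.

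Within the family, the share of RCAN transcripts that came from Rcan2 was larger in NIKhKO. Rcan2 made up 10.1 to 18.7% of the summed FPKM of the 3 genes in NIKflox and 28.3 to 40.8% in NIKhKO, with means of 13.3 ± 3.26% and 32.9 ± 4.74% (SD, n = 5 each). For each unit of Rcan1 FPKM there was 0.159 ± 0.0439 of Rcan2 in NIKflox and 0.506 ± 0.113 in NIKhKO. The family sum itself overlapped, at 6.55 to 15.2 FPKM and 8.04 to 14.2 FPKM, because Rcan1 dominated it. These quantities contain Rcan2 and are descriptions.

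None of the transcripts of calcineurin itself was called. Ppp3r1 (ENSMUSG00000033953, chromosome 11, 17159263 to 17200375, plus strand), the regulatory B subunit and the most abundant of the 10 genes, read 10.2, 12.2, 12.5, 12.8 and 11.9 FPKM in NIKflox and 11.3, 12.4, 12.2, 11.7 and 12.0 FPKM in NIKhKO. Apart from NIKflox 1, the library with the fewest counts, all values lay within 11.3 to 12.8 FPKM. Its log2 fold change was 0.07 with a 95% interval from −0.10 to 0.23 (edgeR adjusted p = 0.84), the narrowest interval of the members tested.

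Ppp3ca (ENSMUSG00000028161, chromosome 3, 136670124 to 136937727, plus strand), the alpha isoform of the catalytic subunit, stood near 3 FPKM in 7 libraries and well below in 3. It read 1.43 FPKM in NIKflox 4, 1.31 FPKM in NIKhKO 1 and 2.12 FPKM in NIKhKO 2, against 2.94 to 3.17 FPKM in the other libraries of both genotypes. The spread therefore lay within genotypes, and the 95% interval of its log2 fold change of −0.03 ran from −0.66 to 0.60 (edgeR adjusted p = 0.98). Ppp3cb (ENSMUSG00000021816, chromosome 14, 20499364 to 20546573, minus strand), the beta isoform, read 1.68 to 2.66 FPKM in NIKflox and 1.37 to 2.53 FPKM in NIKhKO. Its log2 fold change was −0.05 (95% interval −0.46 to 0.35, edgeR adjusted p = 0.96).

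The third catalytic gene, Ppp3cc, lies outside the 10 and read 0.696 ± 0.116 against 0.873 ± 0.174 FPKM (SD, n = 5 each, NIKflox first, edgeR adjusted p = 0.59). Summed over Ppp3ca, Ppp3cb and Ppp3cc, catalytic transcripts came to 5.66 ± 0.948 FPKM in NIKflox and 5.47 ± 1.21 FPKM in NIKhKO. Against this sum Rcan2 stood at 0.225 ± 0.0908 in NIKflox and 0.698 ± 0.209 in NIKhKO, with NIKhKO 4 (0.387) just above NIKflox 4 (0.364). Ppp3r1 exceeded the catalytic sum in every library, by 1.86 to 3.04 times.

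Of the 4 NFAT genes, 3 were expressed above the level needed for a test, and none of the 3 was called by edgeR. Nfatc3 (ENSMUSG00000031902, chromosome 8, 106058840 to 106128042, plus strand), a calcium-regulated NFAT of many tissues, read 2.13 to 2.25 FPKM in 4 NIKflox libraries, 0.928 FPKM in NIKflox 1 and 1.80 to 2.24 FPKM in NIKhKO. Its log2 fold change was 0.15 (95% interval −0.29 to 0.58, adjusted p = 0.87). Nfat5 (ENSMUSG00000003847, chromosome 8, 107293470 to 107379517, plus strand) had the same low library. It read 0.432 FPKM in NIKflox 1, 1.35 to 1.92 FPKM in the other NIKflox libraries and 1.06 to 1.73 FPKM in NIKhKO. The log2 fold change was 0.10 with the widest interval of the members, −0.60 to 0.80 (adjusted p = 0.96). NIKflox 1 was thus lowest of all libraries for Ppp3r1, Nfatc3 and Nfat5. It also had the lowest total count, 47161869, and the part of depth in these values was not tested.

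Nfatc1 (ENSMUSG00000033016, chromosome 18, 80606205 to 80713071, minus strand), known for its roles in lymphocytes, osteoclasts and endocardium, was steady across livers. It read 1.16 to 1.57 FPKM in NIKflox and 1.16 to 1.49 FPKM in NIKhKO, a log2 fold change of −0.03 (95% interval −0.30 to 0.23, edgeR adjusted p = 0.96). Nfatc2 (ENSMUSG00000027544, chromosome 2, 168476410 to 168601632, minus strand), the NFAT of activated T cells, was barely detected, at no more than 0.0491 FPKM and 35 counts in any library and a count of 0 in NIKflox 5. T cell markers were also low, with 9 markers summing to 2.14 to 3.41 FPKM in NIKflox and 1.93 to 4.31 FPKM in NIKhKO.

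**Figure D2:**
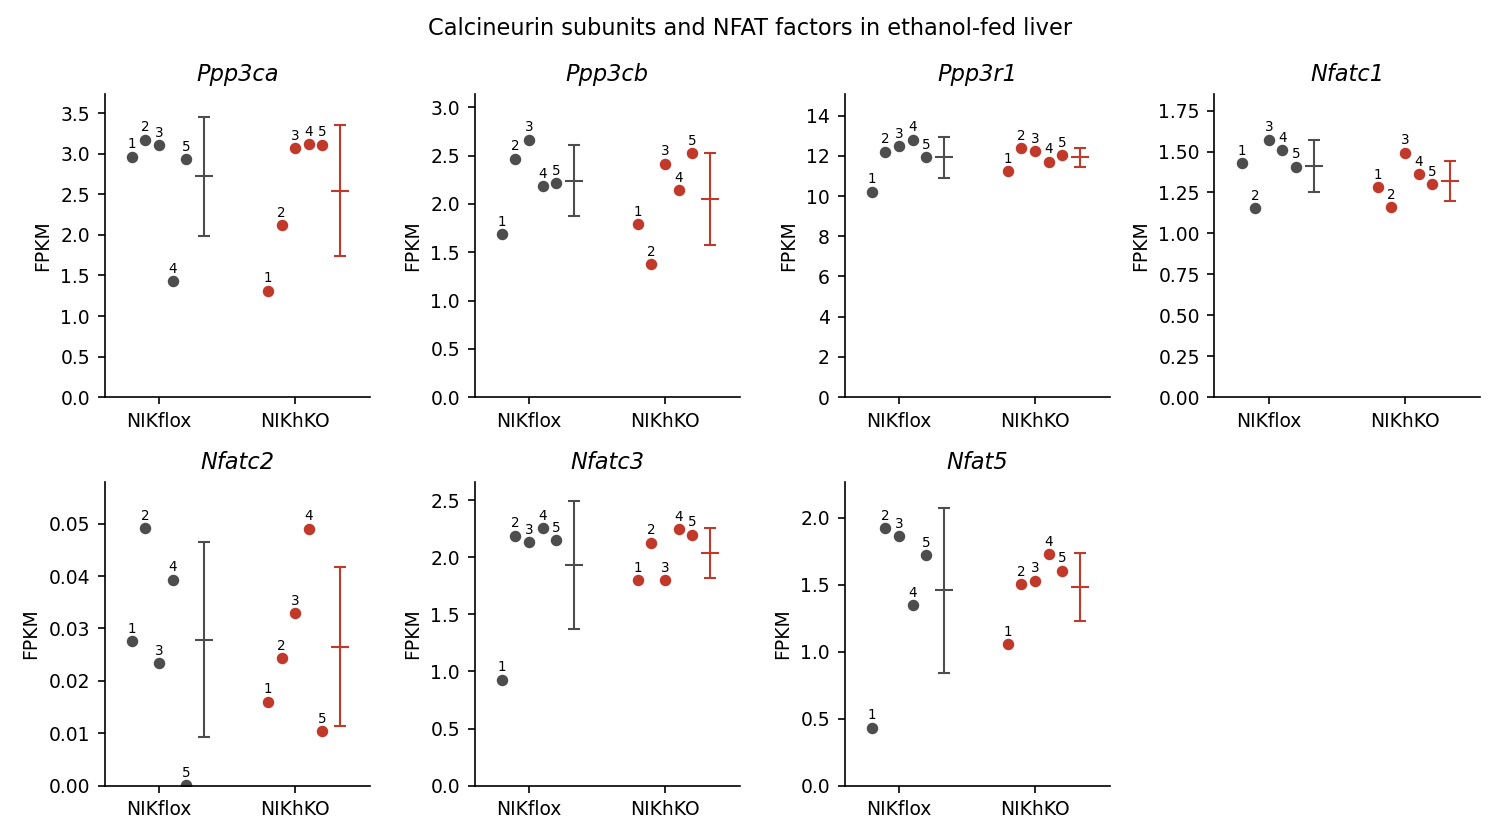
FPKM of the 3 calcineurin subunit genes and the 4 NFAT genes in each library, with the replicate number above each point and the mean ± SD (n = 5) at the right of each group. Vertical axes differ between panels. The groups overlap in all 7 panels, and NIKflox 1 is the lowest library for Ppp3r1, Nfatc3 and Nfat5.

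Across genes, the order of levels in NIKflox was Ppp3r1 (11.9 FPKM), Rcan1 (8.01), Ppp3ca (2.72), Ppp3cb (2.24), Nfatc3 (1.93), Nfat5 (1.46), Nfatc1 (1.41), Rcan2 (1.22), Rcan3 (0.160) and Nfatc2 (0.0279), as group means. From Ppp3ca down to Rcan2, neighbours in this order differed by less than the larger of their SDs. In NIKhKO the first places were the same, at 11.9 and 7.42 FPKM, and Rcan2 stood next at 3.66 FPKM, ahead of Ppp3ca at 2.55 FPKM. Ppp3ca and Rcan2 overlapped there between libraries.

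Of the 9 members other than Rcan2, 7 were tested and 0 were called, against 0.0236% of all genes tested. None had an unadjusted p below 0.05 in edgeR, and limma and DESeq2 also called 0. The 7 log2 fold changes, 3 positive and 4 negative, ran from −0.05 to 0.15 with a median of −0.03, beside a median of −0.01 over all genes tested. In 0 of these 7 did the ranges of the genotypes stay apart, against 2.19% of all genes tested. The intervals do not show that levels were the same. For Nfat5 a 1.74-fold difference lies within the interval, and for Ppp3ca a 1.51-fold difference.

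**Figure D3:**
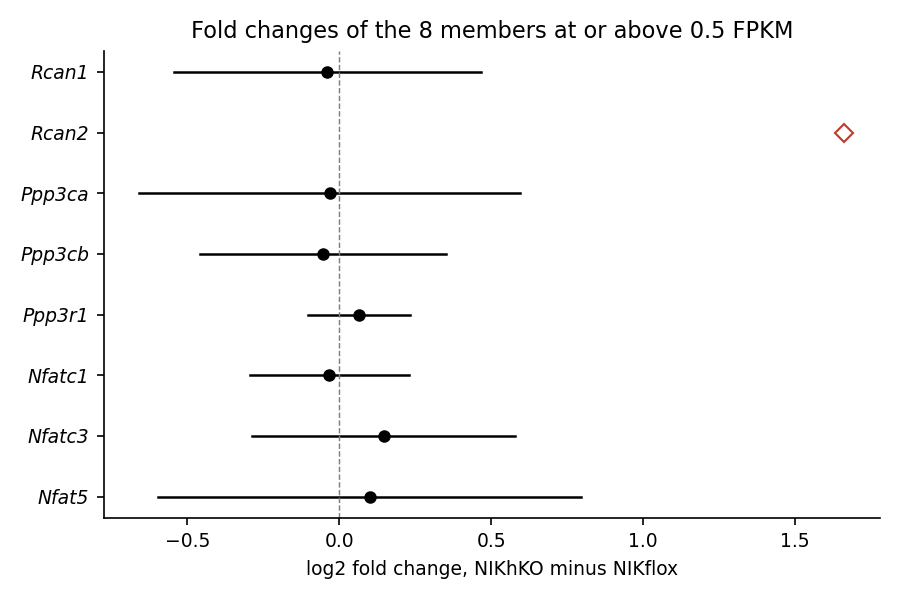
Log2 fold changes, NIKhKO minus NIKflox, of the 8 members with a mean of at least 0.5 FPKM, from edgeR on the estimated counts. Bars are 95% intervals of the 7 members that were tested, and the open diamond is Rcan2, which has no interval because it was chosen by this difference. The 7 tested members lie between −0.05 and 0.15 and their bars cross 0, while Rcan2 stands at 1.66.

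Other cell types in the samples were followed through their markers, since fewer cells of a type and less RNA per cell cannot be told apart in bulk liver. The 5 B cell markers summed to 2.97 to 6.40 FPKM in NIKflox and to 9.34 to 11.8 FPKM in 4 NIKhKO libraries, while NIKhKO 4, the lowest of its group for Rcan2, stood at 4.47 FPKM. Within NIKflox the order was not that of Rcan2, since NIKflox 2 had the least Rcan2 and the highest B cell sum. Of the 5, 4 were tested, all 4 with positive log2 fold changes and 0 called by edgeR. The 6 cholangiocyte markers summed to 26.1 to 46.2 FPKM in NIKflox and 15.8 to 26.9 FPKM in NIKhKO, overlapping ranges in which NIKhKO 4 was highest of its group. Most of this sum was Spp1, at 23.5 to 42.7 FPKM in NIKflox and 14.1 to 23.5 FPKM in NIKhKO. All 4 tested of the 6 were negative, with 0 called, and 1 of the 6 stayed below 0.1 FPKM in every library. Stellate cell and smooth muscle markers, 8 in number, summed to 86.5 FPKM in NIKflox 2, 38.0 to 49.6 FPKM in the other NIKflox libraries and 29.5 to 43.8 FPKM in NIKhKO. Of these 8, 7 were tested, all 7 with negative log2 fold changes and 0 called. NIKflox 2 also had the highest sum of 5 adipose markers, 24.9 FPKM against at most 4.19 FPKM in any other library. The 7 Kupffer cell and macrophage markers summed to 81.9 to 143 FPKM in NIKflox and 87.6 to 139 FPKM in NIKhKO. The 7 endothelial markers summed to 46.3 to 57.5 FPKM in NIKflox and 34.1 to 56.2 FPKM in NIKhKO, again overlapping. Positive log2 fold changes were found for 6 of the 7 Kupffer cell and macrophage markers and 2 of the 7 endothelial markers. In both lists 0 were called. The part of these cell types in the Rcan2 values was not tested.

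Markers of heart and nerve, tissues in which Rcan2 is known to be abundant, were also summed. The 8 heart markers came to 0.118 to 0.223 FPKM in NIKhKO and, outside NIKflox 2 and NIKflox 4, to 0.0107 to 0.183 FPKM in NIKflox. The 5 nerve markers to 0.165 to 0.374 FPKM in NIKhKO against 0.295 to 1.32 FPKM in NIKflox. The 5 skeletal muscle markers summed to 0.108 to 1.98 FPKM in NIKhKO and 0.711 to 12.0 FPKM in NIKflox. Without NIKflox 2 and NIKflox 4, the libraries with heart transcripts, the Rcan2 log2 fold change was 1.59. The part of these tissues in the Rcan2 values was not tested.

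No gene beside Rcan2 on chromosome 17 was called. Of 17 other genes within 500 kb on either side, 6 were expressed enough for a test. Cyp39a1 (ENSMUSG00000023963, 43667425 to 43751431), an oxysterol hydroxylase of bile acid synthesis, ends 49920 bases upstream of Rcan2 on the same strand. It read 23.6, 17.0, 18.5, 28.7 and 19.8 FPKM in NIKflox and 8.90, 9.95, 12.6, 19.3 and 10.5 FPKM in NIKhKO. In 4 NIKhKO livers it was below all NIKflox livers, and NIKhKO 4 lay among the NIKflox values, as the NIKhKO library with the least Rcan2. The log2 fold change was −0.74 (SE 0.22, edgeR adjusted p = 0.29, unadjusted p = 0.0059). The adjusted p lay between 0.062 (DESeq2) and 0.55 over all alternatives.

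On the other side lie Enpp5 and Enpp4, genes of the ectonucleotide pyrophosphatase family, whose nearest ends are 39753 and 57248 bases downstream. Enpp5 read 3.74 ± 0.318 against 3.67 ± 0.484 FPKM (adjusted p = 0.95) and Enpp4 1.37 ± 0.241 against 1.59 ± 0.156 FPKM (SD, n = 5 each, edgeR adjusted p = 0.52). Farther upstream, the adhesion receptor gene Adgrf1 read 0.355 to 0.483 FPKM in 4 NIKflox libraries, was listed at a count of 0 in NIKflox 4, and read 0.626 to 0.964 FPKM in NIKhKO (edgeR adjusted p = 0.55). Its related gene Adgrf5 read 1.80 ± 0.603 against 2.07 ± 0.947 FPKM (adjusted p = 0.85), and Pla2g7, a lipase that breaks down platelet-activating factor, 0.681 ± 0.376 against 0.577 ± 0.223 FPKM (SD, n = 5 each, edgeR adjusted p = 0.95).

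**Figure D4:**
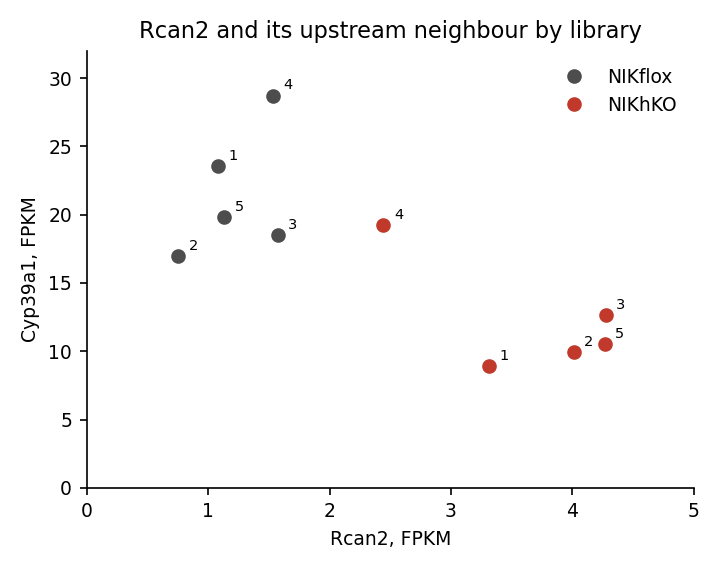
Rcan2 on the horizontal and Cyp39a1 on the vertical axis, both in FPKM, 1 point per library with its replicate number. NIKhKO 1, 2, 3 and 5 combine 3.32 to 4.28 FPKM of Rcan2 with 8.90 to 12.6 FPKM of Cyp39a1, and NIKhKO 4 lies between the groups for Rcan2 and within the NIKflox range for Cyp39a1.

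The wider pathway was read from 9 lists with 84 genes, all of them in the table. Of these genes 63 were tested and 0 were called, 25 with positive and 38 with negative log2 fold changes and a median of −0.07, beside −0.01 over all genes tested. An unadjusted p below 0.05 was reached by 5 of the 63 in edgeR, by 7 in DESeq2 and by 9 in limma on log2(FPKM + 1), beside 1272, 1379 and 1384 of all 12730 genes. DESeq2 and limma called 0 of the 63 as well. Ranges did not overlap for 1 of the 63, against 2.19% of all genes tested.

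Upstream of the phosphatase, calmodulin and calcium-channel genes were not called. Calm3, a calmodulin gene, read 28.4 to 33.6 FPKM in NIKflox and 26.2 to 29.9 FPKM in NIKhKO (log2 fold change −0.10, edgeR adjusted p = 0.71). Of 9 tested genes of calcium entry, release and clearance, 2 were positive and 7 negative, with a median of −0.07. The lowest p belonged to Atp2a2, the endoplasmic reticulum calcium pump, at 34.9 ± 11.0 against 25.2 ± 2.98 FPKM (SD, n = 5 each, log2 fold change −0.40, edgeR adjusted p = 0.51). Atp2a2 is abundant in heart muscle, and its highest values were those of NIKflox 2 (41.0 FPKM) and NIKflox 4 (51.2 FPKM). Without these libraries its log2 fold change was −0.08. The part of heart tissue in its values was not tested. The store-operated channel genes Orai1 and Orai3 followed, with log2 fold changes of −0.19 and −0.16 and adjusted p-values of 0.73 and 0.72.

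Among 9 tested inhibitors, anchors and binding partners of calcineurin, 2 were positive and 7 negative. Chp1, a calcium-binding protein related to the B subunit, read 15.6 to 24.1 FPKM in NIKflox and 12.3 to 18.8 FPKM in NIKhKO (log2 fold change −0.39, SE 0.13, edgeR adjusted p = 0.35). The scaffold genes Homer3 and Homer2 had log2 fold changes of −0.32 and −0.19 (adjusted p = 0.58 and 0.69).

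The kinases that put phosphates back on NFAT were all expressed, with 5 of 8 positive and a median log2 fold change of 0.03. Dyrk1b, Gsk3b and Dyrk1a had the smallest p-values, at log2 fold changes of 0.30, 0.49 and 0.14 and edgeR adjusted p-values of 0.58, 0.71 and 0.76. Gsk3b ranged from 0.439 to 2.78 FPKM within NIKflox alone.

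None of the transcription factor partners of NFAT was called. The tested AP-1 genes among them had negative log2 fold changes, except Jund at 0.01. Fos read 0.414 to 1.65 FPKM in NIKflox and 0.0964 to 0.544 FPKM in NIKhKO (log2 fold change −1.36, SE 0.52, edgeR adjusted p = 0.41). Jun read 2.84 to 9.02 FPKM and 2.50 to 4.00 FPKM (log2 fold change −0.65, adjusted p = 0.53). Fosl2, Junb and Jund had log2 fold changes of −0.35, −0.20 and 0.01 (edgeR adjusted p = 0.67, 0.85 and 0.98). Of the 8 tested genes of this list, which includes Nfatc4 as an untested member, 6 were negative.

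Other substrates of calcineurin were closely spaced, with log2 fold changes from −0.16 to 0.12 for 8 genes. Tfe3, a transcription factor of lysosomal genes, was the 1 gene of the lists whose ranges did not overlap. It read 2.73 to 3.23 FPKM in NIKflox and 2.37 to 2.67 FPKM in NIKhKO (log2 fold change −0.16, edgeR adjusted p = 0.58). The coactivator Crtc2 and the mitochondrial fission gene Dnm1l both had log2 fold changes of 0.12 (adjusted p = 0.71 and 0.76).

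Targets of NFAT in activated lymphocytes were almost silent. Of 10 genes, including Il2 and Ifng, only Nr4a1 was expressed enough for a test, at 0.735 ± 0.324 against 0.583 ± 0.237 FPKM (SD, n = 5 each, edgeR adjusted p = 0.88), and the other 9 averaged at most 0.138 FPKM. Osmotic targets of NFAT5 went both ways, with 2 of 7 positive. Slc6a12, the betaine transporter, had the smallest p of all lists and read 21.7 to 30.8 FPKM in NIKflox and 30.2 to 42.1 FPKM in NIKhKO (log2 fold change 0.41, SE 0.11, edgeR adjusted p = 0.26). The heat shock gene Hspa1a read 0.582 to 17.5 FPKM in NIKflox and 0.969 to 2.15 FPKM in NIKhKO. Its log2 fold change of −1.96 (adjusted p = 0.43) became −1.04 without NIKflox 2, the library at 17.5 FPKM, and −0.06 without NIKflox 2 and NIKflox 4. Akr1b3, the aldose reductase that makes sorbitol, had a log2 fold change of −0.19 (adjusted p = 0.68).

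Rcan2 was first described as a gene that thyroid hormone induces in human skin cells, so genes of thyroid hormone action were listed as well. Of 9 tested, 4 were positive and 5 negative with a median of −0.10, and 0 were called. The receptor gene Thra read 4.11 to 5.33 FPKM in NIKflox and 4.43 to 6.22 FPKM in NIKhKO (log2 fold change 0.34, SE 0.12, edgeR adjusted p = 0.37). Me1, malic enzyme, a hepatic target of the hormone, read 58.1 ± 12.9 against 40.3 ± 12.6 FPKM (SD, n = 5 each, edgeR adjusted p = 0.59).

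**Figure D5:**
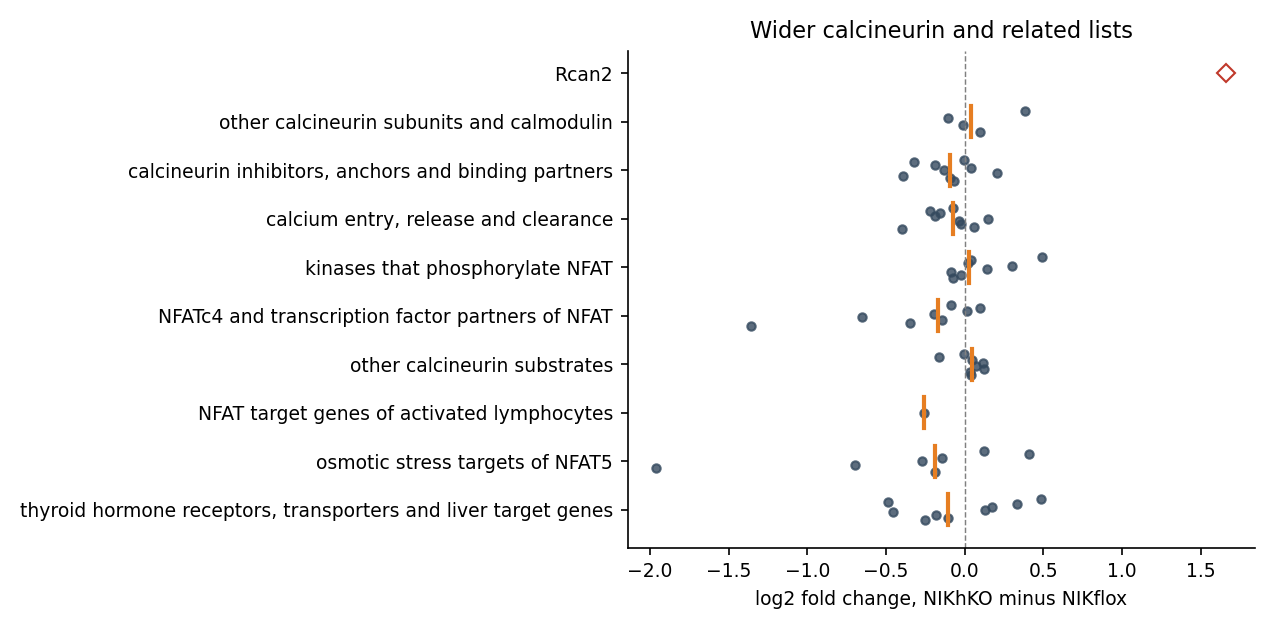
Log2 fold changes, NIKhKO minus NIKflox, of the 63 tested genes of 9 lists, 1 point per gene, with the median of each list as an orange bar and Rcan2 as an open diamond. List medians lie between −0.26 and 0.04, and the listed genes run from −1.96 to 0.49. Rcan2, which was chosen for its rise, stands at 1.66.

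Genes with a pattern like that of Rcan2 were sought among 8861 genes by Pearson's r of log2(FPKM + 1) over the 10 libraries, which share genotype and library. The highest were Plscr2 (r = 0.97), Klk1b4 (0.94), Maob (0.94), Adhfe1 (0.93) and Echdc3 (0.93). The lowest were Arsg (−0.96), Tspan33 (−0.95), Csad (−0.94), Fkbp5 (−0.94) and Zfp933 (−0.92). Csad, the enzyme of taurine synthesis, was itself 1 of the 3 genes called by edgeR, at 10.7 to 35.7 FPKM in NIKflox and 2.84 to 6.57 FPKM in NIKhKO (adjusted p = 0.031). Plscr2 read 4.86 to 5.98 FPKM in NIKflox and 6.55 to 7.60 FPKM in NIKhKO, and its lowest libraries, NIKflox 2 and NIKhKO 4, were those of Rcan2 in each genotype. Arsg was highest within NIKhKO in the same library, with NIKhKO 4 at 3.56 FPKM and the other NIKhKO libraries at 2.36 to 2.68 FPKM. With the genotype means subtracted, r was 0.86 for Plscr2 and −0.86 for Arsg. It was 0.59 to 0.72 for the other genes named as highest and −0.65 to −0.59 for the others named as lowest. On this basis the highest and lowest genes were Hnmt (0.93) and Ltn1 (−0.90). Gpr146, Bphl and Rsad1 came next among the highest and Sec61g, Zfp36, Eef1akmt2 and Irf9 next among the lowest. No other member of the pathway was among these genes. Over the 10 libraries, r with Rcan2 ran from −0.38 for Rcan3 to 0.17 for Nfatc3 among the other members, as descriptions over few libraries. With genotype means subtracted, r among the 7 tested members ran from −0.20 for Ppp3ca to 0.65 for Rcan1, with 0.48 for Nfatc1 and 0.40 for Ppp3r1.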

How the data were processed

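Liver RNA of 5 NIKflox and 5 NIKhKO mice was compared. The deposited table holds estimated counts, all whole numbers, and FPKM for each gene in each library. Tools listed in the submitters' processing notes, with no roles, were HISAT2 2.0.4, StringTie 1.3.4d, cutadapt 1.9 and edgeR. The build listed was hg38, although identifiers are mouse. Of the 10 members, 7 had the same start and end in GENCODE M21 (GRCm38), so the table's coordinates were read as GRCm38. In the deposited estimated counts, low values pile up at 4 (907 genes per library, against 330.5 at 3), and what 1 count stands for was not tested. A count of 0 is listed at 0.0001 FPKM.

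Genes with a mean of at least 0.5 FPKM were tested with edgeR 4.0.16 in R 4.3.3 (quasi-likelihood, TMM, two-sided, Benjamini-Hochberg over 12730 genes, threshold 0.05), after a test on simulated data. The SE was taken as the ratio of the log2 fold change to √F, and 95% intervals use the t distribution with the fit's degrees of freedom. limma 3.58.1 and DESeq2 1.42.0 were alternatives. Promoters are from RefSeq (8 of 10 members matched), coding sequences from GENCODE and alignments from Biopython 1.88. Named genes were the members, the 3 smallest p-values of each list where no gene was called, tested neighbours of Rcan2, and the 5 highest and 5 lowest correlations in each direction of the comparison. Junb, Jund and Spp1 were named after their values were seen. Of the genes this rule gives, 3 are not reported here. The 13 marker lists were followed as sums. Members and lists were chosen with earlier results of these data known.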

Additional observations from a re-analysis of the deposited data

Results flagged for a closer look

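In each genotype, the highest and lowest library of every named gene was compared with the rest of its group. Chance alone sets a library apart in about 1 of 20 groups. A library stood apart in 11 of 116 groups, and in 3 of the 20 groups of members. Among the members these were Rcan1 in NIKflox 4 (13.6 FPKM, others 5.38 to 7.67), Ppp3ca in NIKflox 4 (1.43 FPKM, others 2.94 to 3.17) and Nfatc3 in NIKflox 1 (0.928 FPKM, others 2.13 to 2.25).

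Among the other genes, NIKflox 2 stood apart for Ppp3cc (0.893 FPKM) and Thra (5.33 FPKM), and NIKflox 4 for Adgrf1, listed at 0.0001 FPKM. NIKhKO 4 stood apart for Enpp5 (4.51 FPKM, others 3.25 to 3.60), Arsg (3.56 FPKM), Csad (6.57 FPKM, others 2.84 to 3.75), Gpr146 (2.18 FPKM, others 6.94 to 7.46) and Bphl (42.0 FPKM, others 57.6 to 61.9). NIKhKO 4 was also the lowest NIKhKO library for Rcan2, but its value of 2.44 FPKM did not stand apart by this measure. Arsg, Csad, Gpr146 and Bphl were named for their likeness to Rcan2.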

How the results depend on the processing

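The Rcan2 log2 fold change was positive under all 22 alternatives, and moved by more than the spread between replicates under 1, limma on log2(FPKM + 1), where it was 1.07, since the added 1 compresses low values. With single libraries left out it lay between 1.54 and 1.78. Rcan2 was chosen for its rise in these same libraries, so this sign and range are descriptions and no support for the rise. No other member and no listed gene was called under any alternative, and the adjusted p of the 7 tested members was at least 0.776. Signs of members near 0 were not stable. Ppp3ca kept its sign in 16 of 22 alternatives and Rcan1 in 18 of 22. The count of called genes over all genes tested was 3. It was 207 with DESeq2, 0 with limma at a pseudocount of 1 or 0.1 (1384 and 1358 genes at an unadjusted p below 0.05), 6 with the robust fit and 1 without NIKflox 2 and NIKflox 4. It ran from 0 to 24 with single libraries left out, being 24 without NIKhKO 4, 3 without NIKflox 3 and 0 without any other (978 to 1259 genes at an unadjusted p below 0.05). The cause was not tested. The replicate number is shared between genotypes by label only. Correlations of same-numbered deviations ran from −0.25 to 0.05, so they show no pairing of the samples by number and cannot exclude a weak one. With the replicate block 2 genes were called, 0 of them among the other members or lists, and the Rcan2 log2 fold change was 1.67. Further choices were added after seeing the data, another pseudocount and single libraries left out for the genes most like Rcan2. Of the 10 genes named from libraries as they are, 9 were named again with a pseudocount of 0.1 and 3 to 8 without a library. With genotype means subtracted these were 4 and 0 to 5, so those names depend on single libraries. Rcan3 and Nfatc2 were too low to test.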
